A study of Homo sapiens with 18 samples.

Results

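The 46 genes described here belong to the ATF4 arm of the integrated stress response and to the set of aminoacyl-tRNA synthetases that load tRNAs with amino acids in the cytosol. They were taken by gene symbol from a gene list of 7 transcription factors, 6 stress effectors and feedback genes, 8 amino acid transporters, 5 enzymes of amino acid and carbon metabolism, the tRNA exporter XPOT and 19 synthetases. All 46 were found among the 62749 genes of the count tables, each under a single identifier, and 45 were among the 19252 genes that passed a filter on low counts and were tested. The gene left out was CBS, cystathionine beta-synthase, which had 0 counts over the 3 WT libraries, 5 over the 3 KO libraries and 1 or 2 over the libraries of each other group.

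RNA was sequenced from MDA-MB-231, an established triple-negative breast cancer line, in 6 groups of 3 libraries. WT cells were unedited. KO cells carried a knockout of IMPDH2, the enzyme whose step sets the pace of guanine nucleotide synthesis. The other 4 groups all carried the same knockout label in their titles. They were KO cells grown with 400 µM guanosine, a nucleoside from which guanine nucleotides can be salvaged, or KO cells re-expressing IMPDH2. The re-expressed form was either without a localisation tag in the label (unlocalised) or labelled nuclear or cytosolic. Groups were read from the sample titles and the name of the line from the growth protocol. The cell line field and some genotype values were not used, because they carry numbers that rise from sample to sample. The labels give no promoter or vector for the IMPDH2 forms. They also do not say whether a line was 1 clone or whether libraries within a group were grown as separate cultures. Each p therefore measures only the spread between these libraries.

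Stress kinases that phosphorylate the initiation factor eIF2 slow general translation and let the messenger RNA of ATF4 be translated. GCN2, one of these kinases, senses uncharged tRNA, and PERK, another, senses misfolded protein in the endoplasmic reticulum. ATF4 pairs with C/EBP proteins such as CEBPB and CEBPG on short composite sites and raises genes for amino acid uptake, amino acid synthesis and tRNA charging, together with DDIT3, ATF3, TRIB3 and CHAC1, which act later in the response. Much of the control of ATF4 lies in translation, which RNA counts do not measure.

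Those composite sites share the letters TGATGNAA, where N is any base, and they were looked for on both strands of the RefSeq promoter windows (GRCh38.p14, 250 bases before to 50 bases after each annotated start). Windows existed for 41 members, 64 windows in all. Of these 64 windows, 16 (25%), each of a different member, held TGATGNAA, against 1270 of 35116 windows of all genes (3.62%). The stricter TGATGCAA, whose matches are all also matches of TGATGNAA, was in 10 of 64 (15.6%) against 0.866% of all windows. In the windows of the cytosolic synthetases TGATGNAA occurred in 7 of 21 (33.3%), and in those of the mitochondrial synthetases in 1 of 18 (5.56%). CCAAT, another common promoter element, was in 42.2% of the member windows and 34.6% of all windows. A match of these letters is a description of the window and not a measured binding site.

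Of the matching members 8 are shown because they move in different ways below: ASNS, GARS1, SLC1A4, SLC1A5 and MARS1 were lower in KO than in WT, and CHAC1, ATF3 and IARS1 were higher. Each run of 30 bases is written 5′ to 3′ on the strand on which the match reads TGATGNAA, with the match in capitals.
ASNS: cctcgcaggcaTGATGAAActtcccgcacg
GARS1: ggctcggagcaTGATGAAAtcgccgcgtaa
SLC1A4: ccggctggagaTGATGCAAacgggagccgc
SLC1A5: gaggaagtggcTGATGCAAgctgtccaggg
MARS1: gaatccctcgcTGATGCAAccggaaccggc
CHAC1: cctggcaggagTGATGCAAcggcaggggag
ATF3: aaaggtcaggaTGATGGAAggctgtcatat
IARS1: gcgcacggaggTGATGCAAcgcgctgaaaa
In GRCh38.p14 the ASNS run lies at chr7:97872458-97872487 on the minus strand, that of GARS1 at chr7:30594834-30594863 (minus), SLC1A4 at chr2:64989381-64989410 (minus), SLC1A5 at chr19:46784893-46784922 (minus) and MARS1 at chr12:57488053-57488082 (minus). The CHAC1 run lies at chr15:40953251-40953280 (minus), that of ATF3 at chr1:212565205-212565234 (plus) and that of IARS1 at chr9:92293692-92293721 (plus). Positions are counted from the RefSeq start of the window that holds the match, as position 1 in the direction of the gene. The first base of the match is at -68 in ASNS, -33 in GARS1, -97 in SLC1A5, -209 in CHAC1 and -191 in ATF3. ASNS, GARS1, SLC1A4, SLC1A5 and ATF3 also have windows at other annotated starts, and those hold no match.

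The wider promoter is given for ASNS and CHAC1, which went opposite ways in KO. Both runs are the 250 bases upstream of the RefSeq start whose window holds the match, in the direction of the gene. ASNS lies at chr7:97872409-97872658 (minus strand) and CHAC1 at chr15:40953221-40953470 (plus strand). The capitals mark the single match in each, which in CHAC1 stands on the other strand and reads TTGCATCA.
ASNS: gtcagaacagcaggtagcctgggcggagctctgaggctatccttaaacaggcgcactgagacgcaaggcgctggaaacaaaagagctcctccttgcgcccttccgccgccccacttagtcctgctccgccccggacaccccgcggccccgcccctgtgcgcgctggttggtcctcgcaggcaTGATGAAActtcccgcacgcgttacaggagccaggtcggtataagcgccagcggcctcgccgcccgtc
CHAC1: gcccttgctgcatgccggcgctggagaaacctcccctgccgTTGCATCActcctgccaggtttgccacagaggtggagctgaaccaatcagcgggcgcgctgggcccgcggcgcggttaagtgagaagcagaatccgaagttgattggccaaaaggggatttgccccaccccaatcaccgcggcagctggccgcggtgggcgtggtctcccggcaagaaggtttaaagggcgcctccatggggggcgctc

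The libraries held 45865079 to 63276484 estimated counts. IMPDH2 in KO stood at 13.1% of its WT level, in KO with guanosine at 6.94%, and with the unlocalised, nuclear and cytosolic forms at 167%, 93.3% and 119%. Of 5 markers of the line, VIM, CD44, AXL and ZEB1 were present in every group (the lowest group mean was 28.6 TPM, a transcript level corrected for length and depth, for ZEB1), while SPARC had 1.31 TPM in WT and at most 0.149 in the other groups. All 5 were lower in KO than in WT (-2.77 for SPARC, -0.92 for AXL, -0.48 for VIM, -0.43 for CD44 and -0.15 for ZEB1). The hormone receptors ESR1 and PGR were at most 0.0302 TPM, and ERBB2, on the same list, had 20.2 TPM in WT and was higher in KO (0.10). Of 6 blood markers 3 were tested, of which CD14 (-0.39) and LYZ (-0.54) were lower in KO and PTPRC did not pass, with group means of at most 1.35 TPM. The defining blood genes CD3E and HBB had at most 0.0186 TPM. Of 4 endothelial markers 3 were tested: KDR was higher in KO (6.98 CPM in WT, 23.6 in KO, log2 fold change 1.76), PECAM1 lower (11.1 and 4.91 CPM, -1.17), and VWF did not pass. CDH5, the endothelial cadherin, had at most 0.00765 TPM. Mitochondrially encoded genes took 5.18% ± 0.026 (SD, n = 3) of the counts in WT and 7.41% to 7.82% in the 5 knockout groups, and of the luminal or epithelial markers 4 of 5 tested were lower in KO than in WT, the other one (EPCAM) not passing. Whether any of these has a part in the differences from WT was not tested. Levels below are CPM, each gene's counts relative to the TMM-scaled total of its library, and a gene was called where the quasi-likelihood test of edgeR over all 19252 genes gave an adjusted p (Benjamini-Hochberg) under 0.05.

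In knockout cells most of the ATF4 program stood lower than in WT, while DDIT3 and CHAC1 stood higher. Of the 45 tested members 35 fell, 9 rose and 1 (RARS1) did not pass. The 9 that rose were DDIT3, CHAC1, CEBPB, FARSA, ATF3, KARS1, SLC3A2, WARS1 and IARS1. The share called (97.8%) stands beside 72.7% of all tested genes and 84.3% of the better-expressed genes, those whose log2 CPM averaged 3 or more. For the 35 that fell (of 45), the background is 36.8% of all genes called lower and 49.3% of the better-expressed ones. The median log2 fold change of the members was -0.54, against 0.01 over all genes, with quartiles of -0.45 and 0.53.

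**Figure D1:**
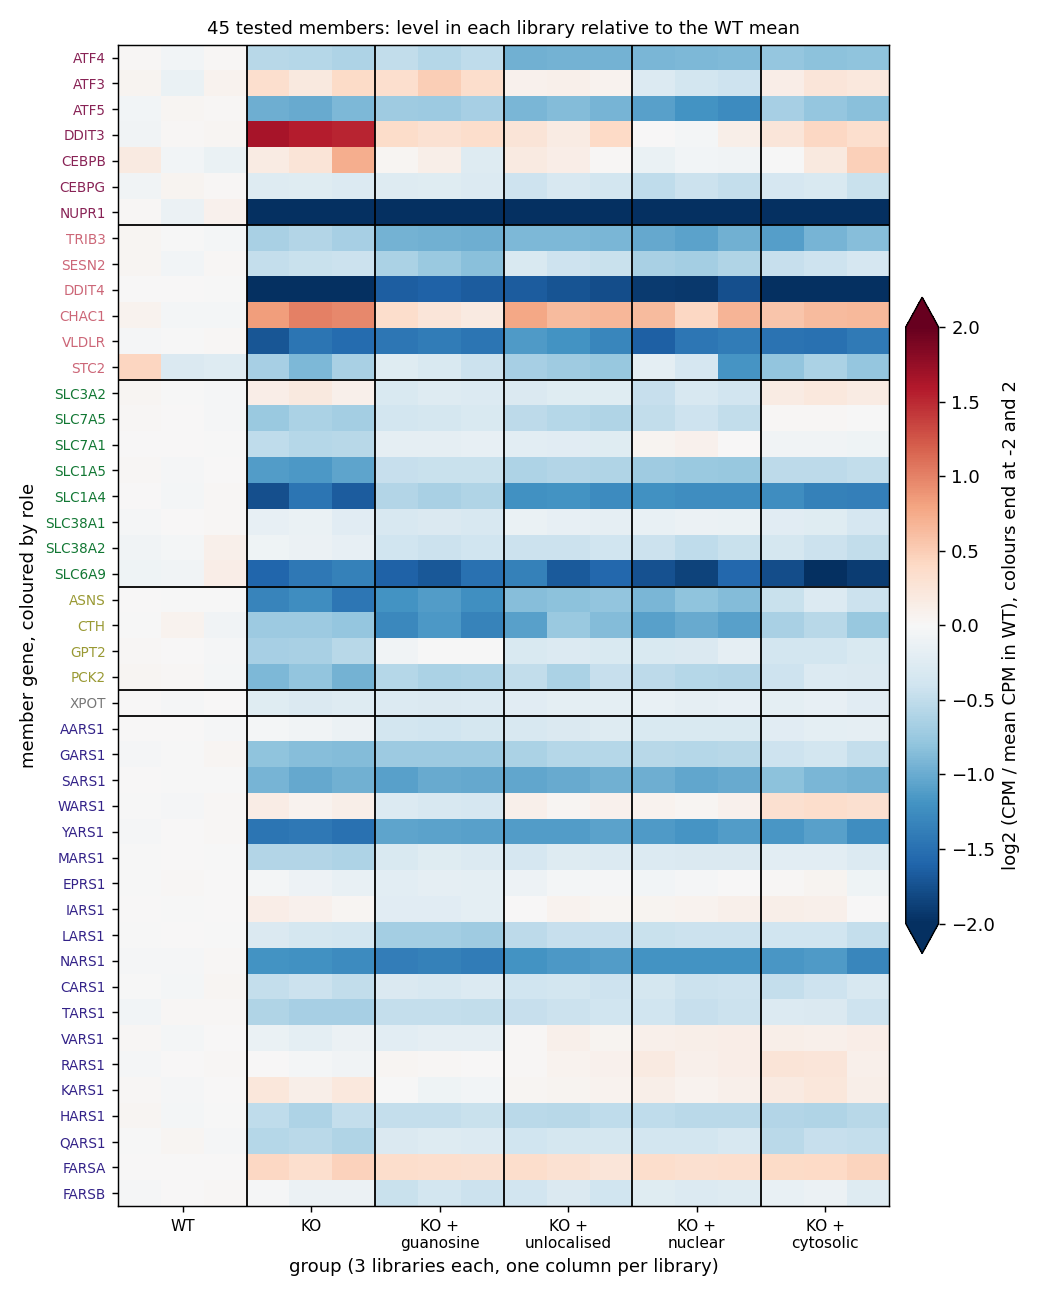
Heat map of the 45 tested members (rows, ordered and coloured by role) in the 18 libraries (columns, 3 per group), as log2 of the CPM over the mean CPM in WT, with colours ending at -2 and 2. DDIT3 and CHAC1 are red in the 3 KO columns and paler in the groups to the right, and NUPR1, DDIT4, SLC6A9, YARS1 and NARS1 are blue in all knockout columns.

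Among the transcription factors, 3 rose and 4 fell in KO, beside 35.9% of all genes called higher and 36.8% lower. DDIT3 (CHOP, a C/EBP relative that is induced late in sustained stress, chr12:57516588-57521737, minus strand, GENCODE 29 on GRCh38) stood at 12.9, 13.7 and 13.9 CPM in the WT libraries and at 42.5, 40.0 and 38.9 in the KO libraries. The groups did not overlap, and the difference was 3-fold (log2 fold change 1.58 ± 0.060 SE, adjusted p = 4.54e-14, edgeR). The share of all genes whose libraries do not overlap between groups is not given, here or for the genes below. A lack of overlap is therefore only a description of the gene. ATF4 itself (chr22:39519695-39522685, plus strand) went the other way, with 399, 376 and 397 CPM in WT and 267, 263 and 255 in KO. It fell by 0.58 on the log2 scale (± 0.026 SE, adjusted p = 6.28e-13, edgeR), so its KO libraries stood at 67% of WT. ATF5, a related factor that is also translated under stress, had 30.7, 32.6 and 32.5 CPM in WT and 16.2, 15.9 and 17.1 in KO, a log2 fold change of -0.96 ± 0.049. CEBPG, an ATF4 partner, fell by 0.26. NUPR1, a small chromatin-associated stress factor, was low in all cells, at 3.06, 2.78 and 3.20 CPM in WT and 0.485, 0.531 and 0.633 in KO, and its log2 fold change of -2.45 ± 0.20 was the lowest of the members. ATF3 rose by 0.31 from 4.84 ± 0.374 CPM (SD, n = 3) to 5.99 ± 0.399. CEBPB rose by 0.40, with 1 KO library (76.3 CPM) apart from the other two (51.7 and 55.1), and without that library, KO replicate 3, the value was 0.21 (adjusted p = 0.131, edgeR). The annotated span of DDIT3 overlaps the end of MARS1 on the opposite strand and ATF5 overlaps NUP62 and IL4I1. The sources used here do not say whether the counting used strand, and without it reads of such neighbours cannot be told apart.

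Stress effectors and feedback genes fell in 5 of 6 cases, beside 36.8% of all genes called lower and 49.3% of the better-expressed ones. DDIT4, an inhibitor of mTORC1 also known as REDD1 (chr10:72273920-72276036, plus strand), dropped from 190, 191 and 189 CPM in WT to 32.1, 40.0 and 37.0 in KO, a 5.23-fold difference (log2 fold change -2.39 ± 0.064 SE, adjusted p = 4.67e-16, edgeR). VLDLR, a lipoprotein receptor that ATF4 induces, went from 24.8, 25.2 and 25.8 to 7.71, 9.16 and 8.72 CPM, a log2 fold change of -1.57 ± 0.066. TRIB3, a pseudokinase that restrains ATF4, went from 52.6, 50.8 and 50.1 to 32.8, 34.2 and 32.3 CPM, a log2 fold change of -0.63 ± 0.046. In each of these 3 genes, named for their wide range of group means, every KO library lay below every WT library. CHAC1, an enzyme that breaks down glutathione (chr15:40952962-40956519, plus strand), was the exception: its WT libraries had 8.46, 7.80 and 7.84 CPM and its KO libraries 14.3, 16.2 and 15.6. It rose by 0.93 on the log2 scale (± 0.070 SE, 1.91-fold, adjusted p = 9.31e-10, edgeR). SESN2, a leucine sensor upstream of mTORC1, fell by 0.45, while the median of the 50 coding genes nearest to it on the chromosome fell by 0.51. The secreted factor STC2 had at most 2.03 CPM in any library, and its fall of 0.73 on the log2 scale did not pass without WT replicate 1 (-0.43, adjusted p = 0.0818, edgeR).

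Amino acid transporters fell in 7 of 8 cases, beside 36.8% of all genes called lower and 49.3% of the better-expressed ones. SLC1A4, a neutral amino acid exchanger that carries serine and alanine (chr2:64988477-65023865, plus strand), had 42.1, 40.8 and 42.6 CPM in WT and 12.3, 15.2 and 13.2 in KO, a 3.09-fold difference (log2 fold change -1.63 ± 0.055 SE, adjusted p = 8.58e-15, edgeR). The glycine transporter SLC6A9 had 31.0, 31.6 and 36.3 CPM in WT and 11, 12.2 and 13 in KO. Its log2 fold change was -1.45 ± 0.10, and that of its chromosome neighbours had a median of -0.45. SLC1A5, the main glutamine transporter of many tumour cells, went from 300, 288 and 294 CPM to 136, 133 and 142, a log2 fold change of -1.10 ± 0.025. None of these 3 genes, also named for their wide range of group means, had overlapping WT and KO libraries. SLC7A5, the light chain of the large neutral amino acid transporter, fell by 0.68 and SLC7A1, a carrier of arginine and lysine, by 0.54. SLC3A2, the heavy chain that SLC7A5 needs at the membrane, rose by 0.15, from 222, 215 and 213 CPM to 238, 249 and 234. The system A transporters SLC38A1 and SLC38A2 changed by -0.18 and -0.12. For SLC38A2 the direction turned with library totals (0.04) and with a transcript length offset (0.08), and the call was lost without WT replicate 3 (-0.05) or without KO replicate 3 (-0.10). Transcripts annotated as protein coding held 78.1% of the SLC38A2 counts in WT and 55.5% in KO.

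All 4 tested enzymes fell, beside 36.8% of all genes called lower and 49.3% of the better-expressed ones. ASNS, asparagine synthetase (chr7:97852118-97872542, minus strand), had 58.0, 57.0 and 57.1 CPM in WT and 23.1, 24.3 and 21.0 in KO, a 2.52-fold difference (log2 fold change -1.33 ± 0.053 SE, adjusted p = 8.56e-14, edgeR). PCK2, the mitochondrial phosphoenolpyruvate carboxykinase, went from 18.6, 18.4 and 17.7 to 9.72, 10.5 and 9.50 CPM (-0.88 ± 0.053), and GPT2, the mitochondrial alanine aminotransferase, fell by 0.62. CTH, which makes cysteine from cystathionine, went from 18.5, 19.7 and 17.9 to 11.3, 11.3 and 10.9 CPM. Its log2 fold change of -0.74 equalled the median of its chromosome neighbours (-0.74), whereas the neighbours of ASNS and PCK2 had medians of 0.24 and 0.37.

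**Figure D2:**
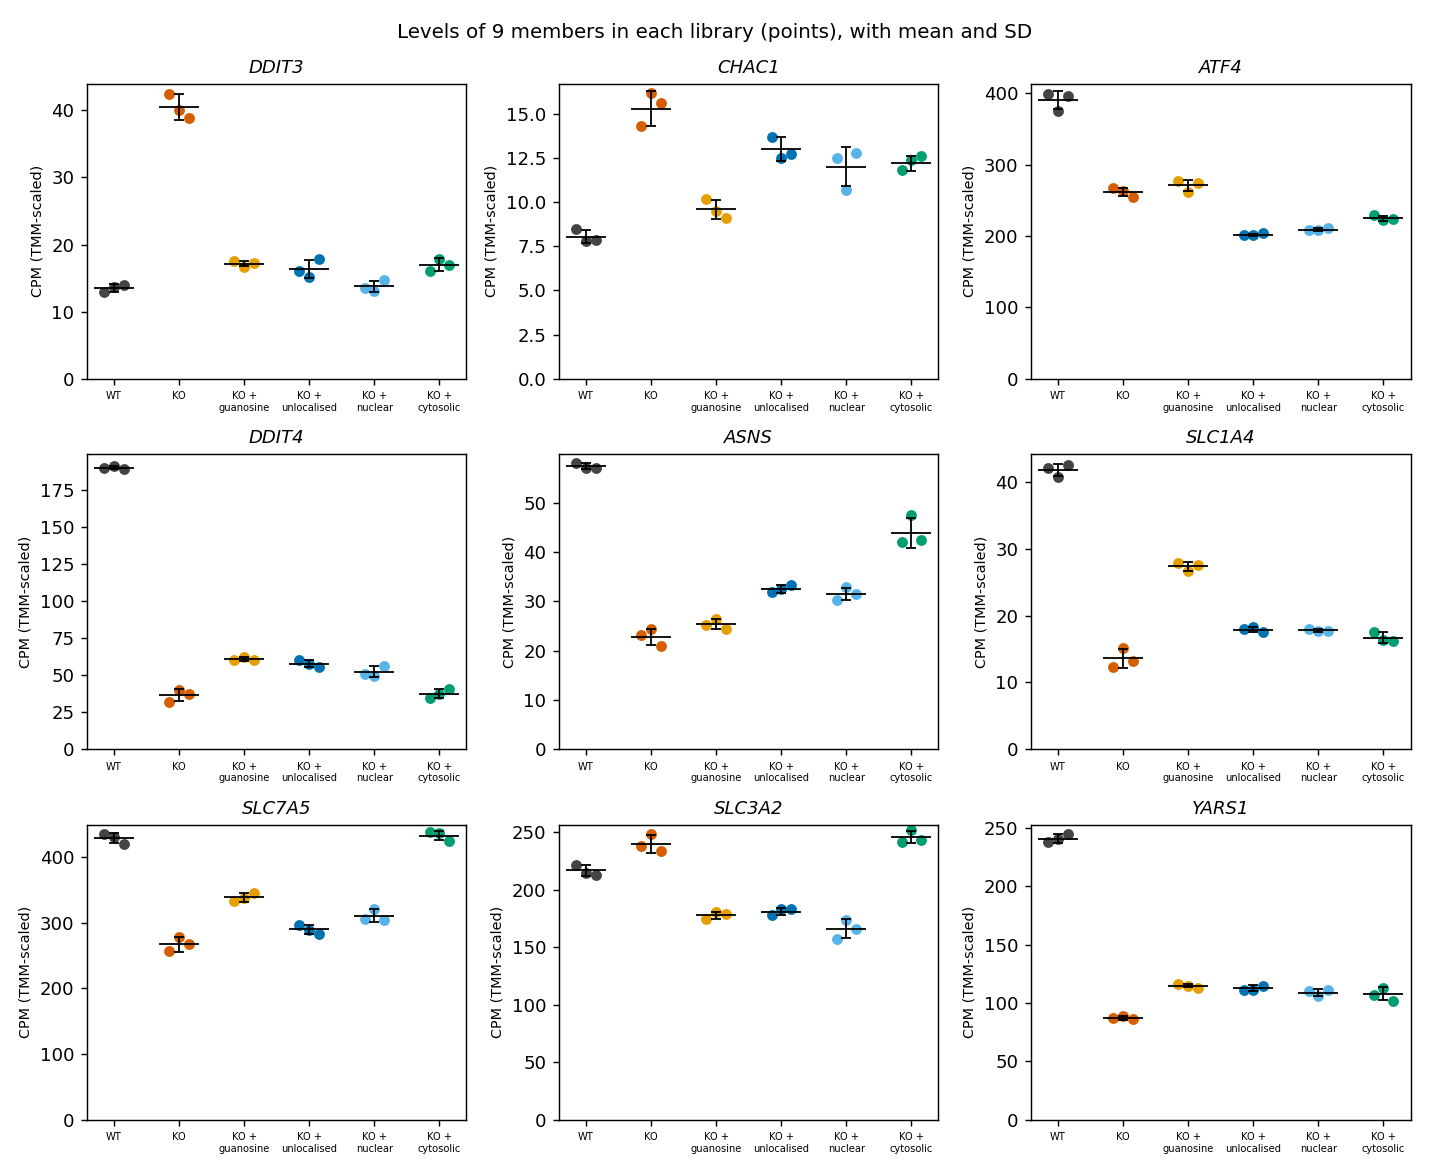
CPM of 9 members in each library (points) with the mean and SD (n = 3), by group, each panel on its own linear axis from 0. DDIT3 and CHAC1 are highest in KO, DDIT4, ASNS, SLC1A4 and YARS1 are highest in WT, and SLC7A5 and SLC3A2 with the cytosolic form stand near or above WT.

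Of the 19 cytosolic synthetases 14 fell, 4 rose and 1 did not pass, and the sizes differed widely. Their median was -0.33. Of all genes 36.8% were called lower and 35.9% higher, and of the better-expressed ones 49.3% and 35.1%. YARS1, the tyrosyl-tRNA synthetase (chr1:32775237-32818153, minus strand), changed most, from 238, 241 and 245 CPM in WT to 87.1, 89.2 and 85.9 in KO (2.76-fold, log2 fold change -1.47 ± 0.031 SE, adjusted p = 2.62e-17, edgeR). NARS1, for asparagine, went from 243, 243 and 251 to 108, 106 and 103 CPM (-1.22 ± 0.034). SARS1, for serine, went from 207, 203 and 204 to 108, 101 and 105 CPM (-0.96 ± 0.034). The KO libraries of all 3, which were named by the same rule of a wide range, lay below every WT library. Genes around them on the chromosome were lower too, with neighbour medians of -0.45 for YARS1, -1.06 for NARS1 and -0.41 for SARS1, and whether the neighbourhood has a part in these falls was not tested. GARS1 for glycine (-0.84), TARS1 for threonine (-0.64), MARS1 for methionine (-0.59), QARS1 for glutamine (-0.57), HARS1 for histidine (-0.54), CARS1 for cysteine (-0.46) and LARS1 for leucine (-0.33) fell as well. HARS1 fell while its neighbours had a median of 0.78, and QARS1, which lies near IMPDH2 on chromosome 3, fell by about as much as its neighbours (median -0.53). LARS1 fell by less than the median of its neighbours (-0.55).

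Another set of synthetases hardly moved. VARS1 for valine, EPRS1 for glutamate and proline, FARSB for phenylalanine and AARS1 for alanine had log2 fold changes between -0.15 and -0.08, RARS1 for arginine had -0.04 ± 0.034 (adjusted p = 0.288, edgeR), and IARS1 for isoleucine, WARS1 for tryptophan and KARS1 for lysine were between 0.08 and 0.19. FARSA, the other subunit of the phenylalanine enzyme, rose by 0.40, with a neighbour median of 0.53. With library totals in place of TMM scaling, AARS1, EPRS1, VARS1 and FARSB turned to 0.08, 0.06, 0.01 and 0.07, so no direction is drawn for them. The 9 members named above as higher stayed higher with both scalings. Library totals move values upward (median over all genes 0.168, against 0.007 with TMM), so this change could not have turned them. XPOT, which exports mature tRNAs from the nucleus, had 262, 258 and 264 CPM in WT and 222, 214 and 218 in KO, a log2 fold change of -0.26 ± 0.022. Compared per length, the most abundant synthetase transcript in WT was TARS1 at 357 TPM and the least abundant FARSB at 16.8 TPM. ATF4 had 260 TPM in WT and 178 in KO, and DDIT3 19.4 and 58.3.

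**Figure D3:**
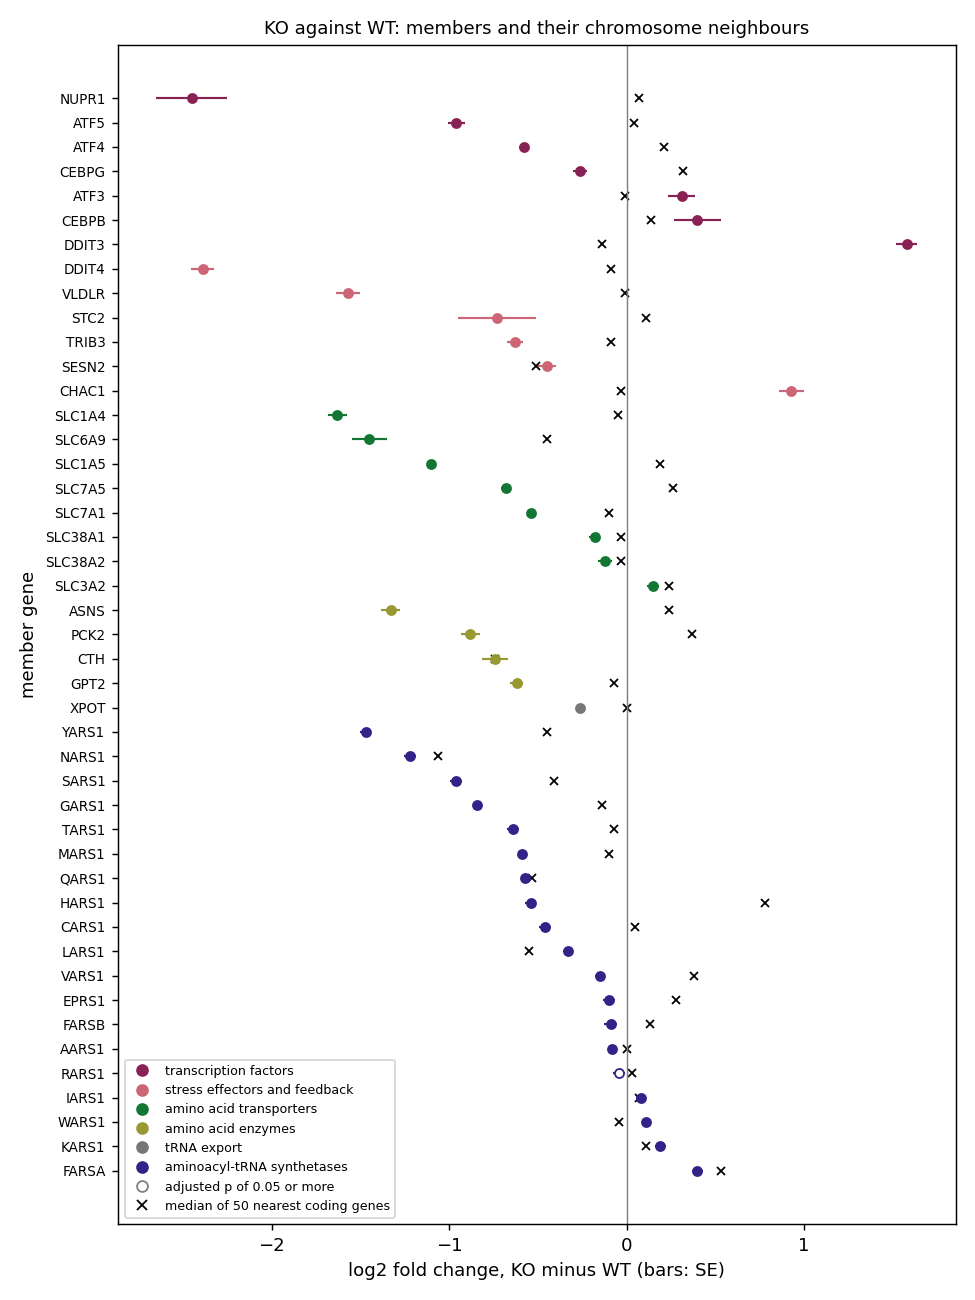
Log2 fold change of each tested member, KO minus WT (points, bars are SE), ordered within roles, with the median of the 50 nearest tested coding genes on the chromosome as a cross. Most points lie left of 0, DDIT4 (-2.39) and ASNS (-1.33) far left of their crosses, while the points of CTH (-0.74) and QARS1 (-0.57) lie on or next to theirs.

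The calls for 34 of the 44 called members were the same in every alternative run for KO against WT, and 10 changed in at least 1. MARS1 lost the call with a transcript length offset (-0.26, adjusted p = 0.467, edgeR). Leaving out 1 library ended further small calls: AARS1 without WT replicate 1 (-0.05), EPRS1 without WT replicate 1 (-0.09) or without WT replicate 3 or KO replicate 3 (-0.08 each), IARS1 without WT replicate 2 (0.07) or KO replicate 1 (0.06), and FARSB without any 1 of the WT libraries or of KO replicates 2 and 3 (-0.09 to -0.06). With the median of each gene's neighbours subtracted, the members' median was -0.49 in place of -0.54.

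Synthetases of the mitochondrion, which are encoded by separate nuclear genes, did not show a common direction. Of 17 tested, 6 rose, 7 fell and 4 did not pass in KO, with a median of -0.00, beside 4, 14 and 1 of the 19 cytosolic members and the background of 72.7% called. RARS2 went from 38.6 ± 0.743 CPM (SD, n = 3) in WT to 21.1 ± 0.581 in KO and CARS2 from 34.3 ± 2.10 to 65.8 ± 3.87. RARS2 had a log2 fold change of -0.87 with a neighbour median of -0.66, and CARS2 0.94 with 0.00. The difference between these lists was not tested. Of 5 other cytosolic genes of tRNA charging, 4 rose and 1 fell, among them AIMP2, a scaffold of the multi-synthetase complex (0.35), and TARS3, a second cytosolic threonine enzyme, from 3.19 ± 0.220 to 8.24 ± 0.219 CPM.

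**Figure D4:**
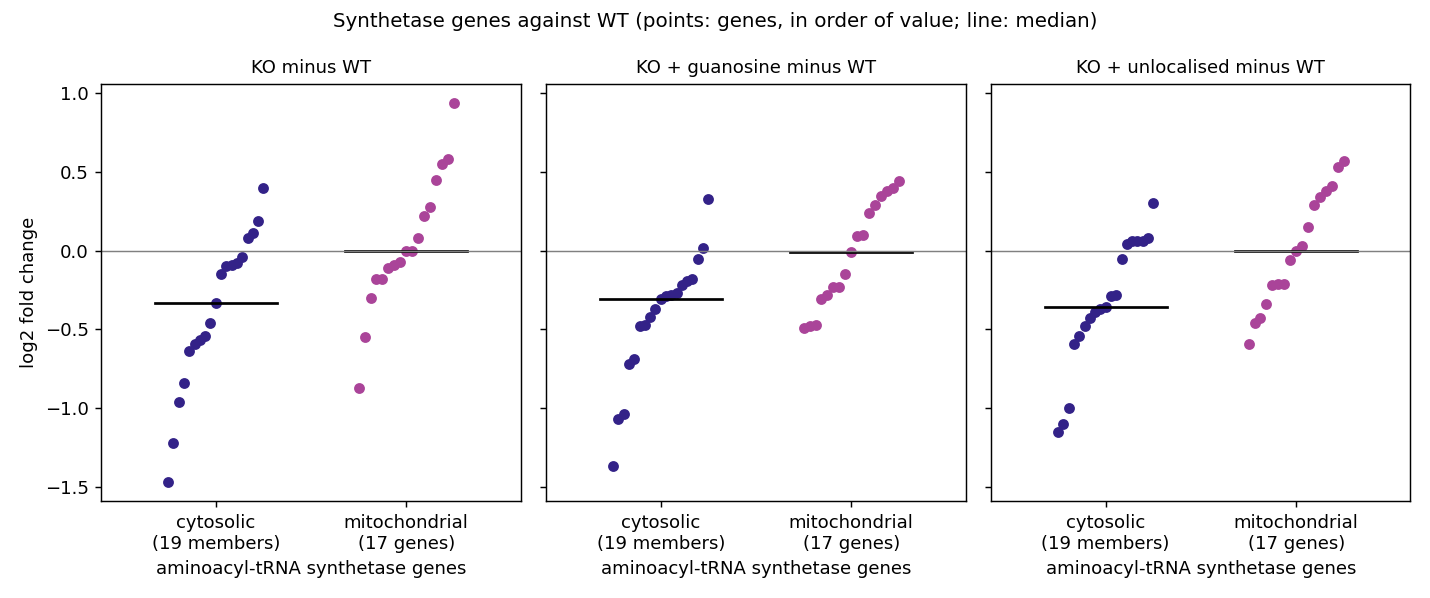
Log2 fold changes of cytosolic (19 members) and mitochondrial (17 genes) synthetase genes against WT in KO, KO with guanosine and KO with unlocalised IMPDH2. Each point is a gene in order of value and the line is the median, which in KO is -0.33 for the cytosolic and -0.00 for the mitochondrial genes.

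Genes around the response were counted in the same way. In KO 11 of 14 other tested ATF4 targets fell, 2 rose and 1 did not pass, with a median of -0.81, which is also the median with PHGDH, at 0 counts in the KO libraries, set at a bound of 3 counts over the group. PHGDH had a mean of 64.99 CPM in WT and did not return with guanosine or any form of IMPDH2. Its highest group mean there was 0.0242 CPM, with the unlocalised form. PSAT1 and SHMT2, enzymes of serine and glycine synthesis, went from 125 ± 3.30 to 57.4 ± 0.609 CPM and from 205 ± 5.62 to 107 ± 1.21 CPM in KO (SD, n = 3). Of 13 kinases, phosphatase subunits and initiation factors of the integrated stress response, 2 rose, 8 fell and 3 did not pass. Beside the counts of both lists, 35.9% of all genes were called higher in KO and 36.8% lower. Of the better-expressed genes 35.1% were called higher and 49.3% lower. The largest rise there was that of PPP1R15A (GADD34), the stress-induced phosphatase subunit that reverses eIF2 phosphorylation, from 143, 144 and 139 CPM in WT to 374, 359 and 363 in KO (log2 fold change 1.36 ± 0.022 SE, adjusted p = 8.42e-19, edgeR). EIF2B3, a subunit of the exchange factor eIF2B, went from 50.9 ± 1.09 to 22.7 ± 0.549 CPM. Its log2 fold change was -1.17 and the median of its chromosome neighbours -0.43. Of 15 genes of the unfolded protein response, 4 rose, 8 fell and 3 did not pass, so 80% were called, beside 72.7% of all genes and 84.3% of the better-expressed ones. The transcription factor XBP1 (-1.02) and EDEM1 (-0.91) were among those that fell, and HSPA5 (0.54), PDIA4 (0.54), CALR (0.40) and HERPUD1 (0.15) were the 4 that rose. In the same order, their chromosome neighbours had medians of 0.08, -0.43, 0.03, 0.19, 0.53 and -0.03. HSPA5, the main chaperone of the endoplasmic reticulum (BiP), had 660, 668 and 670 CPM in WT and 947, 1018 and 939 in KO. It was lower than KO with guanosine (-0.56), with the unlocalised form (-0.39), in cells with the nuclear form (-0.59) and in those with the cytosolic one (-0.28). It was named after its values were seen.

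Guanosine and each form of IMPDH2 moved the members in both directions against KO. The same 12 members were lower in KO than in WT and higher than KO in all 4 groups: the transporters SLC1A4, SLC1A5, SLC7A1 and SLC7A5, the enzymes ASNS, GPT2 and PCK2, and the synthetases GARS1, MARS1, QARS1, TARS1 and YARS1. DDIT3 and CHAC1 were higher in KO than in WT and lower than KO in all 4 groups. Another 4 members, AARS1, LARS1, SLC38A2 and TRIB3, were called lower in KO than in WT and lower still in all 4 groups. For AARS1 and SLC38A2 the direction of KO against WT turned with library totals, so only their place below KO is read. HARS1, SARS1 and STC2 were lower in KO and did not pass in any of the 4. All 4 comparisons share the KO libraries, and the KO libraries also enter the comparison with WT, so these counts are not independent of one another. The share of all tested genes with each of these patterns is not given here, so the counts are not read as particular to the members. Calls that rested on single libraries were QARS1 with the cytosolic form, lost without KO replicate 3 (0.06), cytosolic replicate 2 (0.05) or cytosolic replicate 3 (0.06) and turned by library totals (-0.02), LARS1 with the cytosolic form, lost without KO replicate 1 (-0.06), and ASNS with guanosine, described below. MARS1 lost the call in all 4 comparisons with a transcript length offset (0.26 to 0.39), and AARS1 did so over protein-coding transcripts (-0.20 to 0.02). The length offset also ended the calls of TARS1 with guanosine (0.15), SLC7A5 with the unlocalised form (0.11), GPT2 with the cytosolic form (0.25), QARS1 with all 3 forms (0.20, 0.19 and 0.28) and LARS1 with all 3 forms (-0.10, -0.11 and -0.14). Library totals ended those of GARS1 with guanosine (0.05) and SLC7A5 with the unlocalised form (0.04), and protein-coding transcripts those of GARS1 with guanosine (0.01) and SLC38A2 with the unlocalised (-0.08) and nuclear form (-0.10).

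With guanosine 15 members were higher than in KO, 18 lower and 12 did not pass (73.3% called). Of all genes 56.5% were called there, 27.3% higher and 29.2% lower, and of the better-expressed genes 72.8%, 40.1% higher and 32.7% lower. With the unlocalised form 17 were higher, 14 lower and 14 did not pass (68.9% called), beside 50.8% of all genes (25.7% higher, 25.1% lower) and 66.8% of the better-expressed ones (39.5% higher, 27.3% lower). The nuclear form gave 16 higher, 17 lower and 12 not passed (73.3% called), beside 53% of all genes (26.1% higher, 26.9% lower) and 68.4% of the better-expressed ones (39.8% higher, 28.6% lower). The cytosolic form gave 18 higher, 10 lower and 17 not passed (62.2% called), beside 50.6% of all genes (24.6% higher, 26% lower) and 66.4% of the better-expressed ones (38.1% higher, 28.3% lower). Library totals in place of TMM scaling moved the split to 14 higher and 20 lower with the unlocalised form and to 14 higher and 16 lower with the cytosolic form. The shares called were near those of the better-expressed genes in all 4 comparisons, and the members' medians lay between -0.01 and 0.04.

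DDIT3 came down to near its WT level in all 4 groups. It had 17.5, 16.7 and 17.2 CPM with guanosine and 16.1, 15.2 and 17.8 with the unlocalised form. The nuclear form gave 13.5, 13.1 and 14.7 CPM and the cytosolic form 16, 17.9 and 17. All 12 libraries lay below the lowest KO library, and those of the nuclear form overlapped WT while those of the other 3 groups did not. Against KO the log2 fold changes were -1.24 ± 0.059 with guanosine, -1.31 ± 0.059 with the unlocalised form, -1.56 ± 0.059 with the nuclear form and -1.25 ± 0.058 with the cytosolic one (largest adjusted p = 8.27e-12, edgeR).

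CHAC1 came down less. Guanosine gave 10.2, 9.48 and 9.11 CPM, the unlocalised form 13.7, 12.5 and 12.7, the nuclear form 12.5, 10.7 and 12.8 and the cytosolic form 11.8, 12.4 and 12.6. All were below the 3 KO libraries and above the 3 WT libraries. The log2 fold changes against KO were -0.68 ± 0.070, -0.24 ± 0.068, -0.36 ± 0.068 and -0.33 ± 0.068 in the same order, and the difference between guanosine and the unlocalised form was itself called (-0.44 ± 0.070, adjusted p = 8.02e-05, edgeR).

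ATF4 transcripts did not return towards WT. With guanosine they stood at 277, 262 and 274 CPM, overlapping KO (log2 fold change 0.05 ± 0.026, adjusted p = 0.130, edgeR). The unlocalised form gave 201, 202 and 204 CPM, the nuclear form 208, 209 and 212, and the cytosolic form 229, 222 and 224. Every library with a form of IMPDH2 lay below the lowest KO library, with log2 fold changes of -0.37, -0.32 and -0.22. ATF5 had 19.4, 19.3 and 20.2 CPM with guanosine and 17, 17.4 and 16.8 with the unlocalised form, of which the first was higher than KO (0.26 ± 0.051) and the second did not pass (0.06 ± 0.051). NUPR1 fell further with guanosine, to 0.233, 0.188 and 0.215 CPM (-1.37 ± 0.24, adjusted p = 0.000104, edgeR). It was also called below KO with the unlocalised form (-0.61 ± 0.22), but not in every run with 1 library left out.

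DDIT4 rose part of the way with guanosine (60.3, 62.1 and 60.1 CPM), with the unlocalised form (60.2, 57.6 and 55.3) and with the nuclear form (50.6, 49.7 and 56.4). The cytosolic form gave 34.7, 37.2 and 40.7 CPM, which overlapped KO (0.04 ± 0.068, adjusted p = 0.623, edgeR). No group came above 32% of the WT level. TRIB3 had 26.7, 26.4 and 26.0 CPM with guanosine, 27.6, 27.5 and 27.2 with the unlocalised form, 25.2, 24.5 and 26.3 with the nuclear form and 23.8, 27.0 and 28.3 with the cytosolic one. All 12 of these libraries lay below KO. VLDLR had 9.25, 9.61 and 9.19 CPM with guanosine, 11.5, 11.1 and 10.2 with the unlocalised form, 8.16, 9.26 and 9.60 with the nuclear form and 9.08, 9.04 and 9.53 with the cytosolic one. Only with the unlocalised form was it called against KO in these 4 comparisons (0.36 ± 0.067), and this call was lost over protein-coding transcripts alone (0.59, adjusted p = 0.228, edgeR).

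Transporters and enzymes came back to different extents. SLC1A4 rose with guanosine, to 27.9, 26.7 and 27.6 CPM (1.02 ± 0.055, adjusted p = 3.45e-11, edgeR). The 3 forms gave it 18, 18.3 and 17.5 (unlocalised), 18, 17.7 and 17.7 (nuclear) and 17.6, 16.3 and 16.2 CPM (cytosolic), so guanosine stood above every form, and the difference from the unlocalised form was 0.61 ± 0.054. SLC1A5 had 213, 215 and 215 CPM with guanosine, 191, 196 and 194 with the unlocalised form, 179, 176 and 173 with the nuclear form and 205, 204 and 208 with the cytosolic one, all above KO and below WT. SLC6A9 did not recover: it had 10.7, 10.2 and 11.7 CPM with guanosine, 13, 10.3 and 11.1 with the unlocalised form, 9.84, 9.14 and 11.1 with the nuclear form and 9.63, 7.47 and 8.85 with the cytosolic one. Its chromosome neighbours had medians against WT of -0.50 with guanosine and -0.53 with the unlocalised form. SLC6A9 was below KO with the cytosolic form (-0.48 ± 0.11, adjusted p = 0.00095, edgeR), but not with a transcript length offset (-0.32, adjusted p = 0.0615, edgeR). With the nuclear form it was also called below KO (-0.27 ± 0.10), but not in every run with 1 library left out.

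In ASNS the groups stood in another order than in SLC1A4, with guanosine lowest. It had 25.2, 26.5 and 24.4 CPM with guanosine, 31.8, 32.4 and 33.3 with the unlocalised form, 30.3, 32.8 and 31.5 with the nuclear form and 42.0, 47.5 and 42.4 with the cytosolic form. The unlocalised and nuclear libraries overlapped each other and lay between those of guanosine and those of the cytosolic form. Against KO the log2 fold changes were 0.16 ± 0.055, 0.51 ± 0.054, 0.47 ± 0.054 and 0.95 ± 0.053. The first was lost without KO replicate 3 (0.10), without guanosine replicate 2 (0.12), with library totals (0.09), with a transcript length offset (0.18) and over protein-coding transcripts (0.14), and guanosine and the unlocalised form differed by -0.36 ± 0.054 (with a length offset -0.22, adjusted p = 0.0537, edgeR). PCK2 had 12.3, 11.7 and 11.9 CPM with guanosine, 13, 11.7 and 13.2 with the unlocalised form, 12.6, 12.2 and 12.1 with the nuclear form and 13.7, 15 and 14.9 with the cytosolic one, all above KO. CTH fell below KO with guanosine, to 7.64, 8.47 and 7.41 CPM (-0.51 ± 0.076), while the cytosolic form gave 11.9, 12.7 and 11.1 CPM (0.09 ± 0.074, adjusted p = 0.331, edgeR). Its other values were 8.83, 11.2 and 10.2 CPM with the unlocalised and 8.85, 9.30 and 8.85 with the nuclear form. The nuclear form was also called below KO (-0.31 ± 0.075), and the unlocalised one did not pass (-0.15 ± 0.074).

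The synthetases that had fallen most came back little. Genes near them on the chromosome also stayed lower than in WT. With guanosine the neighbour medians against WT were -0.37 for YARS1, -0.93 for NARS1 and -0.51 for SARS1. With the unlocalised form they were -0.42, -0.84 and -0.43. Whether the neighbourhood has a part in this was not tested. YARS1 had 116, 115 and 113 CPM with guanosine, 111, 111 and 115 with the unlocalised form, 110, 106 and 111 with the nuclear form and 107, 113 and 102 with the cytosolic one. All lay above KO, and the group means were 44.6% to 47.5% of WT against 36.2% in KO. NARS1 had 94.0, 96.8 and 93.7 CPM with guanosine, 107, 111 and 114 with the unlocalised form, 108, 108 and 107 with the nuclear form and 110, 112 and 100 with the cytosolic one, of which guanosine alone differed from KO by the test in these 4 comparisons (-0.15 ± 0.035), a call that was lost with a transcript length offset (-0.11). SARS1 had 96.3, 102 and 101 CPM with guanosine, 100, 102 and 105 with the unlocalised form, 104, 99.7 and 102 with the nuclear form and 116, 109 and 106 with the cytosolic one, and none of the 4 passed against KO (-0.08 to 0.07, smallest adjusted p = 0.0607 by edgeR, of 4 tests). XPOT had 217, 214 and 217 CPM with guanosine, 224, 229 and 230 with the unlocalised form, 237, 232 and 235 with the nuclear form and 230, 234 and 223 with the cytosolic one. Of the 19 cytosolic synthetases 6, 7, 7 and 9 were higher than KO and 8, 5, 4 and 2 lower in the order guanosine, unlocalised, nuclear and cytosolic. The mitochondrial synthetases gave 3, 4, 6 and 3 higher and 8, 7, 6 and 4 lower of 17 in the same order. Of all genes 27.3%, 25.7%, 26.1% and 24.6% were called higher and 29.2%, 25.1%, 26.9% and 26% lower, and of the better-expressed genes 40.1%, 39.5%, 39.8% and 38.1% higher and 32.7%, 27.3%, 28.6% and 28.3% lower.

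With guanosine WARS1 and IARS1, which were higher in KO than in WT, stood below both. They were not alone in this. The synthetases AARS1, EPRS1, FARSB, LARS1 and NARS1 were also called lower with guanosine than in KO and in WT. So were CTH, NUPR1, SESN2, SLC38A1, SLC38A2, SLC3A2 and TRIB3. WARS1 had 155, 151 and 149 CPM with guanosine, against 208, 197 and 204 in KO and 186, 184 and 192 in WT. The unlocalised form gave it 201, 194 and 199 CPM, the nuclear form 197, 194 and 199, and the cytosolic form 236, 240 and 234, the last above KO (0.22 ± 0.025). The chromosome neighbours of WARS1 had a median of 0.31 with the cytosolic form against KO. The difference of WARS1 between guanosine and the unlocalised form was -0.39 ± 0.025 (adjusted p = 1.85e-09, edgeR), with a neighbour median of 0.04. IARS1, VARS1, LARS1, NARS1, EPRS1, KARS1, GARS1 and AARS1 were also lower with guanosine than with the unlocalised form (-0.26 to -0.08), and CARS1 (0.10) and QARS1 (0.09) were higher. Of those 8, NARS1 (-0.13) and EPRS1 (-0.13) lost the call with a transcript length offset, IARS1 (-0.28), GARS1 (-0.22), KARS1 (-0.11) and AARS1 (-0.09) over protein-coding transcripts, and KARS1 also without guanosine replicate 2 (-0.09). Among all members this comparison gave 10 higher, 17 lower and 18 not passed, beside 37.6% of all genes called (18.6% higher, 18.9% lower) and 51.9% of the better-expressed ones (25.5% higher, 26.4% lower). The QARS1 value turned to -0.00 over protein-coding transcripts and that of CARS1 to -0.01 with a transcript length offset. QARS1 also lost the call without unlocalised replicate 1 (0.07), and CARS1 without guanosine replicate 1 (0.09) or 3 (0.08) or unlocalised replicate 1 (0.09) or 3 (0.08). In all, 15 of the 27 calls of this comparison changed in at least 1 alternative. WARS1, CHAC1 and SLC1A4, and the values of SLC7A5 and SLC3A2 below, were picked for display after their values were seen.

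Cells with the nuclear form differed from those with the cytosolic form in 21 of 45 members, 4 higher and 17 lower, while 24 did not pass. The share called (46.7%) stands beside 23.9% of all genes and 32.9% of the better-expressed ones, the share lower beside 10.5% and 14.7%, and the share higher beside 13.4% and 18.2%. The median of the members was -0.07, against 0.00 over all genes. IMPDH2 itself was lower with the nuclear form, at 297.4 CPM against 378.7 with the cytosolic form (log2 fold change -0.35 ± 0.029, adjusted p = 1.33e-07, edgeR). The place and the level of the enzyme thus differ together between these cells, and their parts cannot be told apart. The members higher with the nuclear form were DDIT4, QARS1, SLC38A1 and SLC7A1. Their chromosome neighbours had medians of 0.06, 0.02, 0.02 and 0.17 in that order, and SLC7A1 itself had 0.12.

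SLC3A2 and SLC7A5, the 2 chains of the large neutral amino acid transporter, were both lower with the nuclear form. SLC3A2 had 157, 174 and 166 CPM with the nuclear and 242, 252 and 243 with the cytosolic form (log2 fold change -0.57 ± 0.033, adjusted p = 2.22e-09, edgeR). Guanosine gave it 175, 181 and 179 CPM and the unlocalised form 178, 183 and 183, so 3 of the 4 groups stood below WT and the cytosolic form stood with KO. SLC7A5 had 306, 321 and 304 CPM with the nuclear and 438, 437 and 425 with the cytosolic form (-0.48 ± 0.030, adjusted p = 5.75e-09, edgeR). The cytosolic libraries overlapped WT (435, 431 and 420 CPM), while KO had 257, 278 and 267, guanosine 333, 338 and 346 and the unlocalised form 297, 289 and 283. ASNS (-0.48 ± 0.052), CTH (-0.40 ± 0.075) and PCK2 (-0.24 ± 0.053) were lower with the nuclear form too. Their chromosome neighbours had medians of -0.02, 0.03 and -0.22 in that order. With a transcript length offset PCK2 (-0.24, adjusted p = 0.103, edgeR) and SLC38A1 (0.03) did not pass.

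The transcription factors ATF3 (-0.54 ± 0.077), ATF5 (-0.42 ± 0.051), DDIT3 (-0.30 ± 0.062) and ATF4 (-0.10 ± 0.027) were lower with the nuclear form, and ATF4 lost the call with a transcript length offset (-0.07). ATF5 had 15, 13.9 and 13.4 CPM with the nuclear and 20.2, 18.6 and 17.8 with the cytosolic form, on opposite sides of KO. ATF3 had 4.01, 3.74 and 3.65 CPM against 5.28, 5.72 and 5.6. Neither factor overlapped between the forms, and the share of all genes for which this holds is not given here. DDIT4 was higher with the nuclear form (0.48 ± 0.066, adjusted p = 3.97e-05, edgeR), but over protein-coding transcripts alone, which held 52.9% and 58.8% of its counts, it did not pass (0.32, adjusted p = 0.0581, edgeR). Of the synthetases 6 were lower (WARS1, GARS1, SARS1, TARS1, AARS1 and KARS1, -0.27 to -0.09), 1 was higher (QARS1, 0.14) and 12 did not pass. The chromosome neighbours of WARS1 had a median of -0.12, and those of the others that were lower had medians of -0.01 to 0.04. SARS1, TARS1 and KARS1 lost the call without 1 library (nuclear replicates 2 or 3 or cytosolic replicate 1 for each, also cytosolic replicate 2 for TARS1 and KARS1 and nuclear replicate 1 for KARS1, values from -0.12 to -0.06), GARS1 lost it with a transcript length offset (-0.09) and over protein-coding transcripts (-0.04), and AARS1 and QARS1 turned direction with protein-coding transcripts (0.17) and with a transcript length offset (-0.08).

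**Figure D5:**
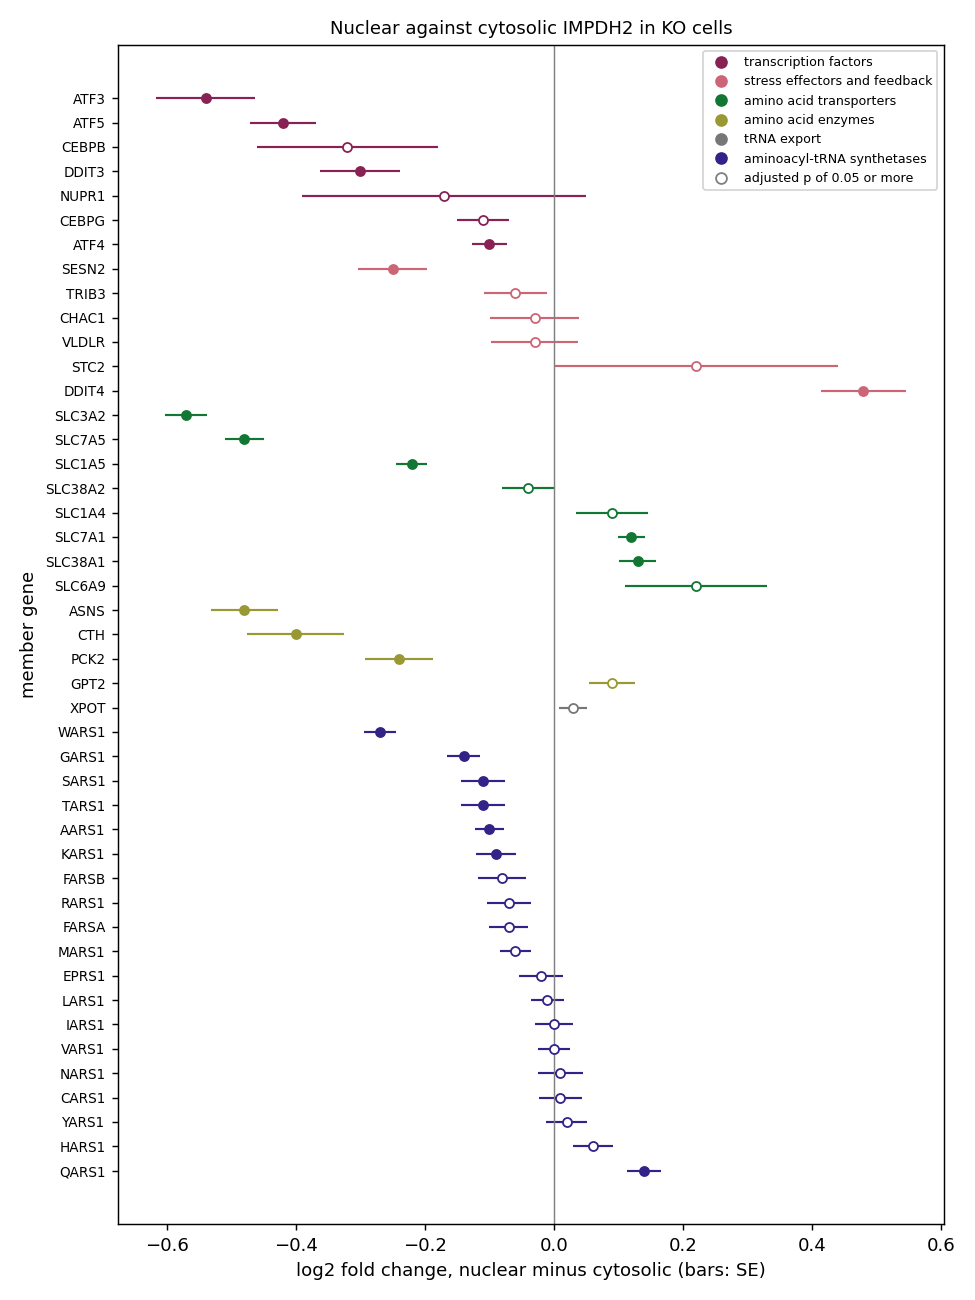
Log2 fold change of each tested member, nuclear minus cytosolic form of IMPDH2 in KO cells (points, bars are SE), ordered within roles, with open points where the adjusted p was 0.05 or more. SLC3A2, ATF3, SLC7A5 and ASNS lie farthest to the left and DDIT4 farthest to the right.

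Against WT most members were also lower with guanosine and with the unlocalised form. With guanosine 36 of 45 members were lower than WT, 4 higher (ATF3, CHAC1, DDIT3 and FARSA) and 5 did not pass, beside 63.9% of all genes called (31.1% higher, 32.9% lower) and 78.1% of the better-expressed ones (35.2% higher, 42.9% lower). With the unlocalised form 34 were lower, 5 higher (CHAC1, DDIT3, FARSA, VARS1 and WARS1) and 6 did not pass, beside 64.5% of all genes called (31.1% higher, 33.4% lower) and 78.4% of the better-expressed ones (34.8% higher, 43.5% lower). The members' medians were -0.37 and -0.40, against 0.00 over all genes in both. GPT2 with guanosine stood at 97.9% of WT and did not pass, while MARS1 and QARS1, called lower with guanosine, turned to 0.00 and 0.04 with a transcript length offset. IARS1 with guanosine lost its call over protein-coding transcripts (-0.32), and VARS1 with the unlocalised form lost its call without WT replicate 2 (0.05) or unlocalised replicate 2 (0.06). The cytosolic synthetases had medians of -0.31 and -0.36 against WT in these 2 comparisons, which share the WT libraries.

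Members with and without the composite letters in their promoter windows were also set side by side. In KO 12 of the 16 members with TGATGNAA fell and 4 rose, with a median of -0.50. Of the 24 tested members whose windows lacked it 18 fell and 5 rose, with a median of -0.55. Beside both counts, 36.8% of all genes were called lower in KO and 35.9% higher, and 49.3% and 35.1% of the better-expressed ones. With the cytosolic form the medians against KO were 0.05 and 0.04. With guanosine they were 0.10 and -0.07. A window without a match says only that these letters are not in it.

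Over the 6 group means on the log2 CPM scale, the genes most like ASNS among all tested were ENSG00000277728, PCDH15, HDHD5, TMEM9B and CNIH1, with Pearson correlations from 0.986 to 0.9923. These are descriptions over 6 points that share their libraries.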

How the data were processed

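Per the file headers, the deposited tables hold Salmon output, with the authors' estimated counts, TPM values and effective lengths of 252048 transcripts. The submitters' processing notes name Trim Galore 0.6.10, Salmon 1.10.0 and, as the build, hg19. These tables hold no coordinates, so positions are those of GENCODE 29 on GRCh38 and promoters those of RefSeq on GRCh38.p14. Per the labels, 500 ng of total RNA entered stranded mRNA libraries.

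The authors' estimated counts were summed to genes and rounded (32.5% of transcript values were not whole). The deposited TPM values were used only to compare levels between genes. One edgeR 4.0.16 fit (R 4.3.3, TMM scaling, filterByExpr, quasi-likelihood test, 18 libraries, a mean per group) gave 9 comparisons, with p-values adjusted within each by Benjamini-Hochberg. Its common coefficient of variation between libraries was 4.87%. CPM and SD were computed from the summed counts. For each gene the neighbours are the 50 nearest tested coding genes on its chromosome. Tables and plots were made with Python 3.11.15, pandas 2.3.3, numpy 2.4.6 and matplotlib 3.10.9.

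The members and lists were chosen with earlier results of these data known. The rule for named genes took ATF4, DDIT3, ASNS and up to 3 members of each role with the widest range of group means (mean log2 CPM 1 or more), and at most 2 genes of each other list with the smallest adjusted p in KO against WT. Other members with values, such as CHAC1, SLC3A2, SLC7A5, NUPR1, ATF3 and WARS1, were picked after their values were seen. Alternatives were DESeq2 1.42.0 size factors, library totals, no filter, the DESeq2 Wald test, a replicate block, the 6 compared samples alone, a transcript length offset, protein-coding transcripts, neighbour medians subtracted and each library left out. A simulation for KO against WT changed 200 genes, in KO alone and in either direction. There (18830 genes tested) the edgeR step recovered 53.7%, 70.1% and 87.9% of genes changed by a log2 of 0.5, 1 and 2, with 2.8% of calls false. In the data 72.7% of genes were called, so these rates do not carry over to its calls. The raw reads were not analysed here.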

Additional observations from a re-analysis of the deposited data

Results flagged for a closer look

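ATF5 differed between the nuclear and the cytosolic form by -0.42 on the log2 scale (adjusted p = 1.09e-05, edgeR's quasi-likelihood test, n = 3 libraries each), with the 2 forms on opposite sides of KO. The nuclear form was below KO in 3 of 3 libraries (-0.22 ± 0.051 SE) and the cytosolic form above it in 3 of 3 (0.20 ± 0.050 SE). Against KO the cytosolic value did not pass with library totals (0.11, adjusted p = 0.0814, edgeR) or with a transcript length offset (0.14, adjusted p = 0.128, edgeR).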

How the results depend on the processing

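Of 387 recomputed counts and medians 373 stayed the same, by direction and by a count within 1.5 times, and 14 moved. Of 4144 recomputed fold changes of called members 3887 kept direction and call, 240 lost the call and 17 turned direction. The transcript length offset moved most counts: unlocalised against KO to 9 members lower and 6512 genes called, cytosolic against KO to 6 lower, nuclear against cytosolic to 2 higher, 10 lower and 1856 genes called, and guanosine against unlocalised to 10 lower and 4145 genes called. Library totals gave 16 lower for cytosolic against KO and 8 higher for unlocalised against WT, where no filter also gave 8, and protein-coding transcripts gave 9 lower for unlocalised against KO. Subtracting neighbour medians moved KO against WT to -0.49 and guanosine against WT to -0.45. The median over all genes in KO against WT was 0.007 with TMM scaling and 0.168 with library totals.

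Direction turned with library totals for SLC38A2 (0.04), AARS1 (0.08), EPRS1 (0.06), VARS1 (0.01) and FARSB (0.07) in KO against WT, XPOT with the unlocalised (-0.02) and cytosolic form (-0.02) and QARS1 with the cytosolic form (-0.02) against KO. With the length offset it turned for SLC38A2 in KO against WT (0.08), MARS1 (0.00 with guanosine, 0.07 with the unlocalised form) and QARS1 (0.04 with guanosine) against WT, QARS1 in nuclear against cytosolic (-0.08) and CARS1 in guanosine against unlocalised (-0.01). Over protein-coding transcripts it turned for AARS1 in unlocalised against KO (0.02) and in nuclear against cytosolic (0.17) and for QARS1 in guanosine against unlocalised (-0.00). The cause was not tested.

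Replicate numbers did not pair the libraries: 1 of 45 pairs with the same number had a correlation of deviations over 0.1 (median -0.00613), and 5 of 18 libraries correlated best with their own number. With the number as a replicate block, KO against WT gave 9 members higher, 35 lower and 13955 genes called. Leaving out 1 library gave 8 to 9 higher and 31 to 35 lower there, and in nuclear against cytosolic 4 higher and 14 to 21 lower. At a spread of 4.87%, calls under about 0.1 on the log2 scale are near the limit of these libraries, and genes under 1 CPM such as NUPR1 in the knockout groups rest on few counts.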
